A study of Homo sapiens with 15 samples.

Results

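The miR-374 family comprises the hairpin precursors miR-374a, miR-374b and miR-374c, each of which yields a mature miRNA from its 5p and its 3p arm. Every entry of the count data named miR-374a, miR-374b or miR-374c was taken, which gave 5 arms among 2424 mature miRNAs. These were hsa-miR-374a-5p, hsa-miR-374a-3p, hsa-miR-374b-5p, hsa-miR-374b-3p and hsa-miR-374c-3p, written below without the species prefix. The counts after FTO knockdown covered all 5 arms among 2418 miRNAs. The RIP-seq counts covered 4 arms among 2189 miRNAs, and miR-374b-3p was not analysed here in RIP-seq. The family was chosen by the measured enrichment of miR-374b-5p in m6A over IgG precipitates, so those values are given as a description and were not tested.

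All libraries were made from the small RNA fraction of 3 clones, FTO1C1, FTO2D4 and FTO3C3. The clones derive from Flp-In 293 T-Rex cells, a form of the human embryonic kidney line HEK293. The study describes them as uninduced for the knockdown and does not state this for RIP-seq. For the knockdown, each clone received scrambled siRNA or FTO siRNA at 10 nM and was harvested after 48 h, which gave 3 libraries per group. For RIP-seq, the same clones gave 1 input, 1 m6A precipitate and 1 IgG precipitate each, again 3 libraries per group. The labels of these libraries name no siRNA. Each clone gave 1 library per group. The spread between the 3 libraries of a group therefore holds differences between clones, of preparation and of counting, which cannot be told apart.

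Methylation of adenosine at the N6 position (m6A) is a reversible mark of RNA that FTO, a demethylase, removes, and an antibody against m6A can precipitate RNA that carries it. A precipitate made with IgG, an antibody of no defined RNA target, controls for recovery that does not depend on the mark. A mature miRNA finds its targets mainly through its seed (bases 2 to 8), and the arms of one hairpin differ in their targets and in how much of each persists in the cell. In the RefSeq gene table for GRCh38.p14, all family hairpins lie on the X chromosome within the span of FTX (chrX:74028136-74293574), a long non-coding RNA gene. MIR374B (chrX:74218547-74218618) lies on the minus strand, 85 bases from MIR421 (chrX:74218377-74218461). MIR374C (chrX:74218549-74218618) occupies nearly the same bases on the plus strand. MIR374A (chrX:74287286-74287357) lies on the minus strand, 76 bases from MIR545 (chrX:74287104-74287209), and 68485 bases separate MIR374B from MIR545. That table gives no exons, so whether these hairpins fall in exons or introns of FTX was not determined here. Reads were matched to mature miRNA sequences and not to a genome, so these positions come from RefSeq and not from the reads.

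The mature sequences show how close the arms are, since reads of near-identical arms can be exchanged in counting. They are given 5′ to 3′ from RefSeq with the seed in capitals, for the 4 counted arms that matched an entry. The neighbour miR-421 is added because its RIP-seq values are set beside those of miR-374b-5p.
miR-374a-3p: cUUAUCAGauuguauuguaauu
miR-374b-5p: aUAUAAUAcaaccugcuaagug
miR-374b-3p: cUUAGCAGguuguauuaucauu
miR-374c-3p: cACUUAGCagguuguauuauau
miR-421: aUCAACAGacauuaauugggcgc

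The 4 arms are each 22 bases long and no pair of these 4 has the same seed. miR-374a-5p was not part of this sequence comparison, so whether it has the seed of miR-374b-5p was not determined. The 3p arms of miR-374a and miR-374b differ at 4 positions counted from the 5′ end of miR-374a-3p, namely U5G, A9G, G17A and A19C, of which U5G falls in the seed. miR-374c-3p is the exact reverse complement of miR-374b-5p, so both are read from the same bases (chrX:74218587-74218608) on opposite strands. miR-374c-3p and miR-374b-3p have a run of 18 bases in common. By the study's rule for matching reads, with exact matches of at least 7 bases that together cover at least 17, part of the reads of either arm could be given to the other. The same holds for miR-374b-5p and miR-374c-5p, which is not analysed here and has a run of 20 bases in common with it. The counts of miR-374b-5p, miR-374b-3p and miR-374c-3p are therefore uncertain to this extent, and how many reads were exchanged was not tested.

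The 4 arms with a sequence are rich in A and U. The A and U content was 77.3% in miR-374a-3p and 68.2% in miR-374b-5p, miR-374b-3p and miR-374c-3p, against a median of 47.8% over the 2127 counted miRNAs with a sequence. miR-374b-5p has 9 adenosines, against a median of 5. The core of the m6A consensus, RAC, was searched on the mature strand as AAC or GAC. miR-374b-5p holds 1 such match, AAC beginning at base 10, and miR-374a-3p, miR-374b-3p and miR-374c-3p hold 0. miR-374a-5p was not searched, so whether this match sets miR-374b-5p apart from it was not tested. Over the counted miRNAs, 37.4% hold at least 1 match. The longer form, in which a further purine stands before RAC and A, C or U follows it, occurs in 21.6% of the counted miRNAs and in none of these 4 arms. miR-421 has 2 matches to the core and 1 to the longer form.

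The libraries differed in depth, which sets the precision of each value. FTO siRNA libraries held 3462842 to 3876806 miRNA reads, scrambled siRNA libraries 1991317 to 3637951, inputs 1408702 to 1500357, m6A precipitates 569501 to 4973238 and IgG precipitates 186446 to 786688. The unit of all levels is RPM, reads per 1000000 miRNA reads. A count of 3 reads, the limit that a count of 0 allows, equals 4.05 RPM in the IgG library of FTO1C1 and 16.1 RPM in that of FTO3C3. One miRNA, miR-6080, took 2.05% to 4.18% of the reads in the knockdown libraries, 15.5% to 28.4% in inputs, 41.3% to 47.8% in m6A precipitates and 58.0% to 71.6% in IgG precipitates. The RPM of every other miRNA is lowered by that share, and its part in the RIP-seq ratios was examined with totals that leave miR-6080 out. FTO mRNA was not measured in these small RNA libraries. The study measured the knockdown in these clones by qRT-PCR and Western blot and reports a partial loss of FTO.

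In cells treated with scrambled siRNA, miR-374a-3p was the most abundant arm of the family and miR-374c-3p the least. miR-374a-3p was at 601, 787 and 596 RPM in FTO1C1, FTO2D4 and FTO3C3, which ranked 121 by mean level among 2418 miRNAs. The other arm of that hairpin, miR-374a-5p, was at 349, 446 and 343 RPM in the same order of clones. miR-374b-5p was at 149, 163 and 159 RPM, with a standard deviation of 4.65% of its mean. miR-374b-3p was at 73.7, 85.2 and 68.3 RPM. miR-374c-3p was at 11.8, 11.0 and 22.6 RPM, from 43, 27 and 45 reads. The order was the same in all 3 clones, and the ranges of neighbouring arms did not overlap. For each of the 4 neighbouring pairs the exact two-sided sign-flip permutation test over the 3 clones gave p = 0.25, the smallest value that 3 clones allow. On the log2 scale the mean difference between neighbours was 0.80 from miR-374a-3p to miR-374a-5p, 1.26 to miR-374b-5p, 1.06 to miR-374b-3p and 2.40 to miR-374c-3p.

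The inputs of the RIP-seq experiment, whose labels name no siRNA, gave the same order for the 4 arms analysed there. miR-374a-3p was at 779 ± 250 RPM (SD, n = 3), miR-374a-5p at 404 ± 70.5, miR-374b-5p at 166 ± 30.2 and miR-374c-3p at 40.2 ± 14.3. Again the exact two-sided sign-flip test between neighbours gave its smallest p, 0.25, in each of 3 pairs. The counts of the 2 experiments are held in separate tables, and no test was made across them. The 5p arms of miR-374a and miR-374b kept a narrow proportion: miR-374b-5p gave 0.419 ± 0.0495 reads per read of miR-374a-5p with scrambled siRNA, 0.429 ± 0.0534 with FTO siRNA and 0.414 ± 0.0501 in inputs (SD, n = 3 each).

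**Figure D1:**
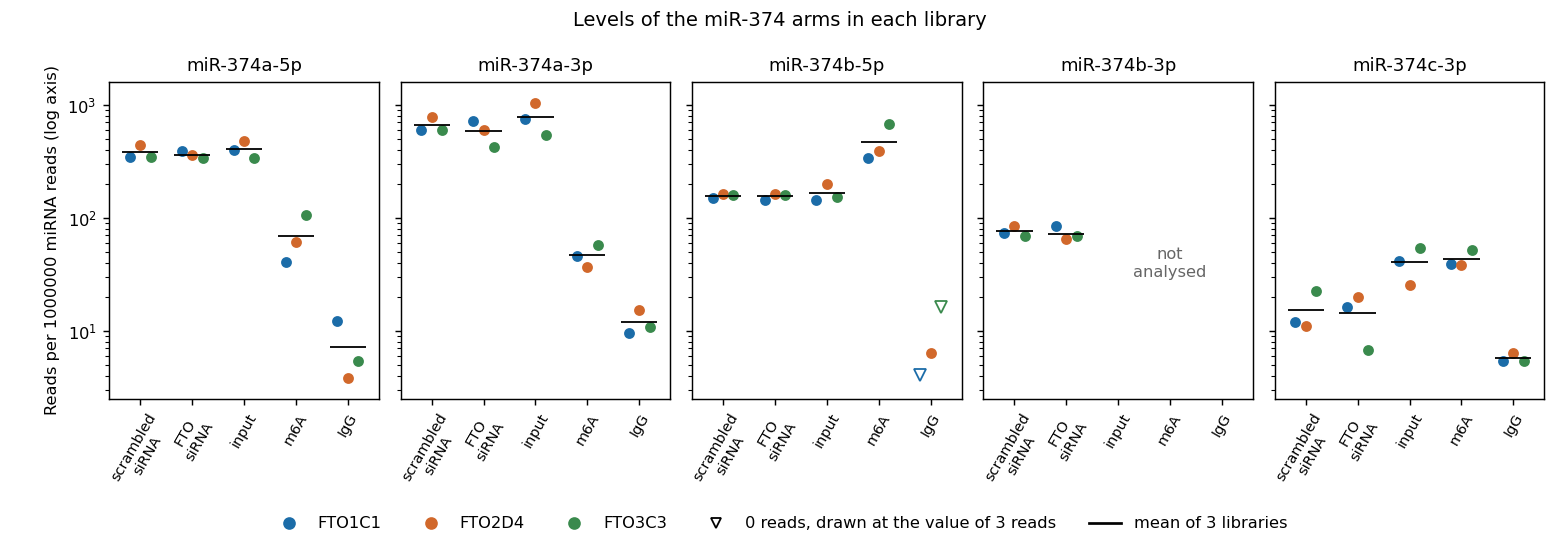
Level of each miR-374 arm in every library, in reads per 1000000 miRNA reads on a log axis, with 1 point per clone and a bar at the mean of 3 libraries. miR-374b-5p stood at 341 to 675 RPM in m6A precipitates and at 0 reads in 2 of 3 IgG precipitates, while both miR-374a arms were lower in m6A precipitates than in inputs.

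No arm of the family passed the test after FTO knockdown. With FTO siRNA, miR-374a-3p was at 720, 604 and 428 RPM in FTO1C1, FTO2D4 and FTO3C3, which overlaps the range found with scrambled siRNA. Relative to scrambled siRNA in the same clone, its ratio was 1.20, 0.767 and 0.718, higher in 1 clone and lower in the others. miR-374a-5p was at 388, 361 and 340 RPM, with ratios of 1.11, 0.811 and 0.991. miR-374b-5p was at 143, 163 and 159 RPM, and its ratios of 0.961, 0.996 and 1.00 had the narrowest range of the 5 arms. miR-374b-3p was at 84.2, 64.4 and 68.9 RPM, with ratios of 1.14, 0.756 and 1.01. In miR-374c-3p the ratios of 1.36, 1.82 and 0.297 went in opposite directions and rested on 56, 69 and 26 reads with FTO siRNA. The FTO siRNA and scrambled siRNA libraries overlapped for each of the 5 arms, whereas they did not overlap, in either direction, for 28.2% of the 2418 miRNAs.

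Differences were tested by edgeR's quasi-likelihood test with the clone as a block over 2374 miRNAs. An adjusted p under 0.05 was reached by 5.48% of those miRNAs and by 0 of the 5 arms, with an unadjusted p under 0.05 for 26.2% of the miRNAs and for 0 arms. The log2 fold change was -0.20 (SE 0.18) for miR-374a-3p, with an adjusted p of 0.484 by edgeR. It was -0.05 (SE 0.16) for miR-374a-5p, -0.02 (SE 0.16) for miR-374b-5p, -0.06 (SE 0.19) for miR-374b-3p and -0.08 (SE 0.41) for miR-374c-3p, with edgeR adjusted p between 0.851 and 0.949. The data leave room for moderate changes, since the 95% interval of the fold was 0.663 to 1.14 for miR-374a-3p, 0.756 to 1.23 for miR-374a-5p and 0.771 to 1.26 for miR-374b-5p. It was 0.708 to 1.29 for miR-374b-3p and 0.504 to 1.77 for miR-374c-3p.

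Scaling to the total miRNA reads left a general shift in this comparison, a median of 0.29 over the log2 fold changes of the 2374 miRNAs. The 5 arms lay between the percentiles 8.59 and 17.6 of all tested log2 fold changes. TMM factors moved the median to -0.00035, and the log2 fold changes then were -0.49 for miR-374a-3p, -0.34 for miR-374a-5p, -0.36 for miR-374b-3p, -0.31 for miR-374b-5p and -0.38 for miR-374c-3p. None of the 5 had an adjusted p under 0.05 by edgeR, the lowest being 0.175 for miR-374a-3p, from an unadjusted p of 0.0146. DESeq2 also called none of the arms, with its lowest adjusted p of 0.112 for miR-374a-3p, which was at an unadjusted p of 0.0179. Single clones set the sign of 3 arms. Without FTO2D4 the log2 fold change was 0.07 for miR-374a-5p and 0.10 for miR-374b-3p, with edgeR adjusted p of 0.900 and 0.876. Without FTO3C3 it was 0.64 for miR-374c-3p, at an edgeR adjusted p of 0.125 from an unadjusted p of 0.0298. Without FTO1C1 it was -0.43 for miR-374a-3p, at an edgeR adjusted p of 0.341 from an unadjusted p of 0.0395.

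**Figure D2:**
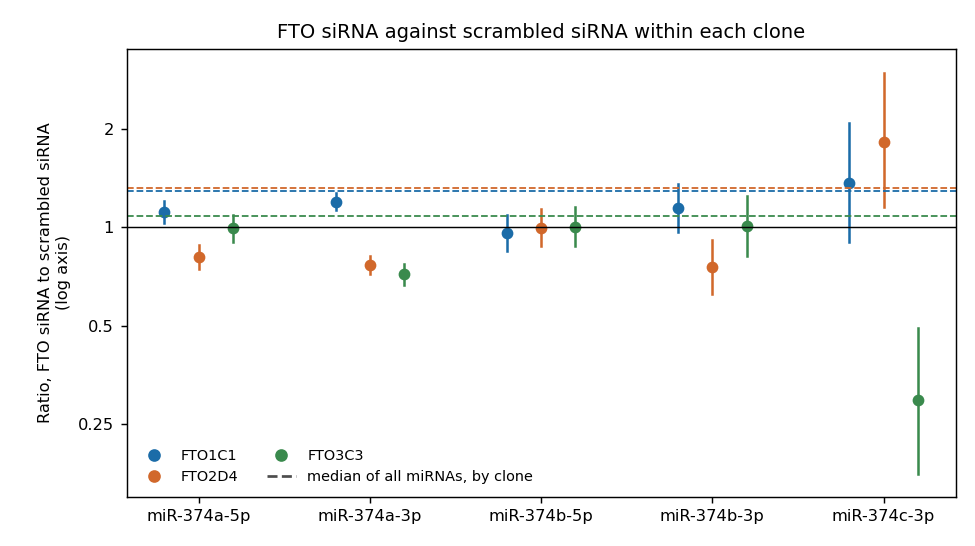
Ratio of FTO siRNA to scrambled siRNA for each miR-374 arm within each clone, on a log axis, with 95% counting intervals as vertical lines and dashed lines at the median of all miRNAs in that clone (1.29, 1.32 and 1.08). The points of miR-374b-5p lie between 0.961 and 1.00, and those of miR-374c-3p between 0.297 and 1.82.

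Whether the paralogs responded differently was tested directly. The within-clone log2 ratio of miR-374a-5p minus that of miR-374b-5p was 0.21, -0.30 and -0.01 in FTO1C1, FTO2D4 and FTO3C3, with a mean of -0.03 ± 0.26 (SD, n = 3). For the 3p arms the same difference was 0.07, 0.02 and -0.49, with a mean of -0.13 ± 0.31. The exact two-sided sign-flip permutation test gave p = 0.75 and p = 1, where 0.25 was the smallest value possible. With 3 clones this test could not reach 0.05 whatever the values, so it leaves a difference between the paralogs undecided.

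Both hairpins were also compared by which arm their reads came from, a measure that does not depend on the scale of the library. In miR-374a the 3p arm gave most of the reads, and in miR-374b the 5p arm did. With scrambled siRNA the 5p arm held 36.7%, 36.2% and 36.5% of the reads of both miR-374a arms, and with FTO siRNA 35.1%, 37.4% and 44.3%, in FTO1C1, FTO2D4 and FTO3C3. The share after FTO siRNA in FTO3C3 stood above the other 5 values, with a 95% Wilson interval of 42.5% to 46.1%. In miR-374b the 5p arm held 66.9%, 65.7% and 70.0% in the scrambled siRNA libraries, against 63.0%, 71.6% and 69.8% after FTO siRNA. The mean change was 2.45 ± 4.82 percentage points in miR-374a and 0.613 ± 4.99 in miR-374b (SD, n = 3). Exact two-sided sign-flip permutation tests of the logit share gave p = 0.75 and p = 1, and could not go below 0.25. These intervals, like all counting intervals here, were computed from read numbers alone and cover counting error only. They hold no difference between clones or of preparation. Reads were not counted by molecular identifiers, so even the counting error may be larger than shown.

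**Figure D3:**
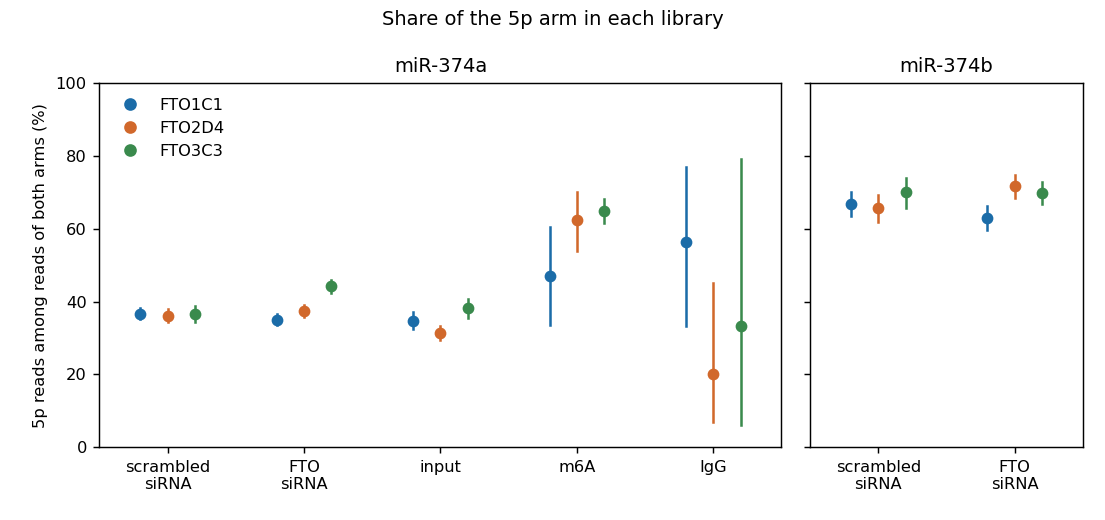
Share of 5p reads among the reads of both arms of miR-374a (5 groups) and miR-374b (knockdown groups), in percent, with 1 point per clone and 95% Wilson intervals. The share of miR-374a was 31.4% to 44.3% in input and siRNA libraries and 46.9% to 65.0% in m6A precipitates, and the wide intervals in IgG precipitates rest on 3 to 16 reads.

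In the m6A precipitates miR-374b-5p was the most abundant of the arms analysed in RIP-seq, in place of miR-374a-3p. It was at 341, 393 and 675 RPM in the m6A libraries of FTO1C1, FTO2D4 and FTO3C3, from 194, 536 and 3357 reads. In the IgG libraries of the same clones it had 0, 5 and 0 reads. With a count of 0 set to 3 reads, the ratio of m6A to IgG was 84.2 in FTO1C1 and 42.0 in FTO3C3. The lower 95% counting limits were 67.8 in FTO1C1 and 34.1 in FTO3C3. In FTO2D4 the ratio was 61.9, with a 95% counting interval of 26.4 to 191. The mean of these ratios was 62.7 with scaling to total miRNA reads, which is an estimate and no bound. With the same floor the mean was 37.1 with TMM factors and 39.4 with totals that leave out miR-6080. With a count of 0 set to 1 read it was 147 ± 97.0 (SD, n = 3), and the value for FTO2D4 did not change with this choice. Since the family was chosen through this contrast, these ratios are a description.

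The other arms analysed in RIP-seq had smaller ratios of m6A to IgG. miR-374a-5p was at 40.4, 60.9 and 106 RPM in m6A and at 12.1, 3.81 and 5.36 RPM in IgG libraries, with ratios of 3.33, 15.97 and 19.8. miR-374a-3p was at 45.7, 36.7 and 57.1 RPM in m6A and at 9.44, 15.3 and 10.7 RPM in IgG libraries, with ratios of 4.84, 2.41 and 5.32. miR-374c-3p was at 38.6, 38.2 and 51.9 RPM in m6A and at 5.39, 6.36 and 5.36 RPM in IgG libraries, with ratios of 7.16, 6.00 and 9.67. The IgG values of these 3 arms rested on 1 to 12 reads, so the size of each ratio is known only roughly. In FTO3C3, for instance, the 95% counting interval of the ratio of miR-374a-5p was 3.54 to 783, with 1 read in IgG. All 4 arms stood higher in every m6A library than in any IgG library, as did 45.9% of the 2189 miRNAs.

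The study's cutoff for a methylated miRNA is at least 100 RPM in m6A and a ratio to IgG of at least 2. Here it was taken as that level in all 3 m6A libraries and a mean ratio of at least 2, which may differ from the study's use. miR-374b-5p met this cutoff, as did 11.8% of all miRNAs and no other arm analysed in RIP-seq. The nearest arm outside it was miR-374a-5p, whose m6A level reached 106 RPM in FTO3C3 but not 100 RPM in the other clones. A mean ratio above 100 together with that level, with an IgG count of 0 set to 1, was found for 0.777% of the miRNAs, miR-374b-5p included. In a fit over all miRNAs with the clone as a block, the log2 fold change of m6A to IgG was 7.22 (SE 0.67) for miR-374b-5p, 3.01 (SE 0.55) for miR-374a-5p, 2.78 (SE 0.46) for miR-374c-3p and 1.86 (SE 0.44) for miR-374a-3p. The first depends on how a count of 0 is treated in the fit and is no bound. The median over all miRNAs fitted was 0.83.

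Relative to the input, the arms differed in direction. For miR-374b-5p the ratio of m6A to input was 2.36, 1.96 and 4.38, above 1 in each clone. For miR-374a-5p it was 0.101, 0.128 and 0.317, and for miR-374a-3p 0.0606, 0.0353 and 0.105, so that both miR-374a arms were lower in every m6A library than in any input. miR-374c-3p had ratios of 0.938, 1.51 and 0.961, and its libraries overlapped. All m6A libraries lay above all inputs for 1 of the 4 arms and for 67.9% of all miRNAs, and below all inputs for 2 of the 4 arms and for 11.1% of all miRNAs. The log2 fold change of m6A to input was 1.45 (SE 0.40) for miR-374b-5p, 0.14 (SE 0.39) for miR-374c-3p, -2.61 (SE 0.44) for miR-374a-5p and -4.02 (SE 0.46) for miR-374a-3p. These contrasts use the m6A libraries through which miR-374b-5p was chosen, so they were not tested either.

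How miR-374b-5p stands relative to input depends on the scale of comparison. The median miRNA had a ratio of m6A to input of 2.74, 2.73 and 3.86 in the 3 clones, close to that of miR-374b-5p, whose mean ratio of 2.90 ± 1.30 (SD, n = 3) became 1.08 ± 0.265 with TMM factors and 4.12 ± 2.24 with totals that leave out miR-6080. The geometric mean ratio of miR-374b-5p lay at percentile 44.5 of all miRNAs. Of the 2189 miRNAs, 264 had at least 100 RPM in all inputs. Among these, a background chosen after its values were seen, the median of the geometric mean ratios was 0.468 and miR-374b-5p lay at percentile 90.5. In the same 264 miRNAs, miR-374a-5p lay at percentile 24.2 and miR-374a-3p at 12.1, so the miR-374a arms were among the lower ratios on either background, at percentiles 3.47 and 1.55 of all miRNAs. With TMM factors the mean ratio of miR-374a-5p was 0.0659 and that of miR-374a-3p 0.0247.

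In the IgG precipitates the arms were scarce. The ratio of IgG to input was 0.0303, 0.00801 and 0.0160 for miR-374a-5p and 0.0125, 0.0147 and 0.0197 for miR-374a-3p. For miR-374b-5p it was 0.0317 in FTO2D4. With a count of 0 set to 3 reads it was 0.0281 in FTO1C1 and 0.105 in FTO3C3. The upper 95% counting limits there were 0.0348 and 0.130. miR-374c-3p had the highest of these ratios, at 0.131, 0.251 and 0.0993. All 4 arms were lower in every IgG library than in any input, as were 22.5% of all miRNAs, whose median ratio of IgG to input was 1.32, 1.13 and 2.12 in the 3 clones. Low ratios were common among the 264 miRNAs abundant in inputs, where the median of the geometric mean ratios was 0.0899. In that set miR-374a-3p lay at percentile 13.6, miR-374a-5p at 14.8 and miR-374b-5p at 35.2, the last from a ratio that rests on the floor for a count of 0.

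The contrast between the 5p arms of miR-374a and miR-374b was visible within a single library, where the scale cancels. In the m6A libraries miR-374b-5p gave 8.43, 6.46 and 6.36 reads per read of miR-374a-5p, a mean of 7.08 ± 1.17 (SD, n = 3), against 0.414 ± 0.0501 in inputs. In IgG libraries 0, 5 and 0 reads of miR-374b-5p stood against 9, 3 and 1 reads of miR-374a-5p. Within the miR-374a hairpin the 5p share was 46.9%, 62.4% and 65.0% in m6A and 34.7%, 31.4% and 38.2% in input libraries, higher in m6A in all 3 clones. The share in FTO1C1 rested on 49 reads and had a 95% Wilson interval of 33.7% to 60.6%, which contains the input value of that clone.

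**Figure D4:**
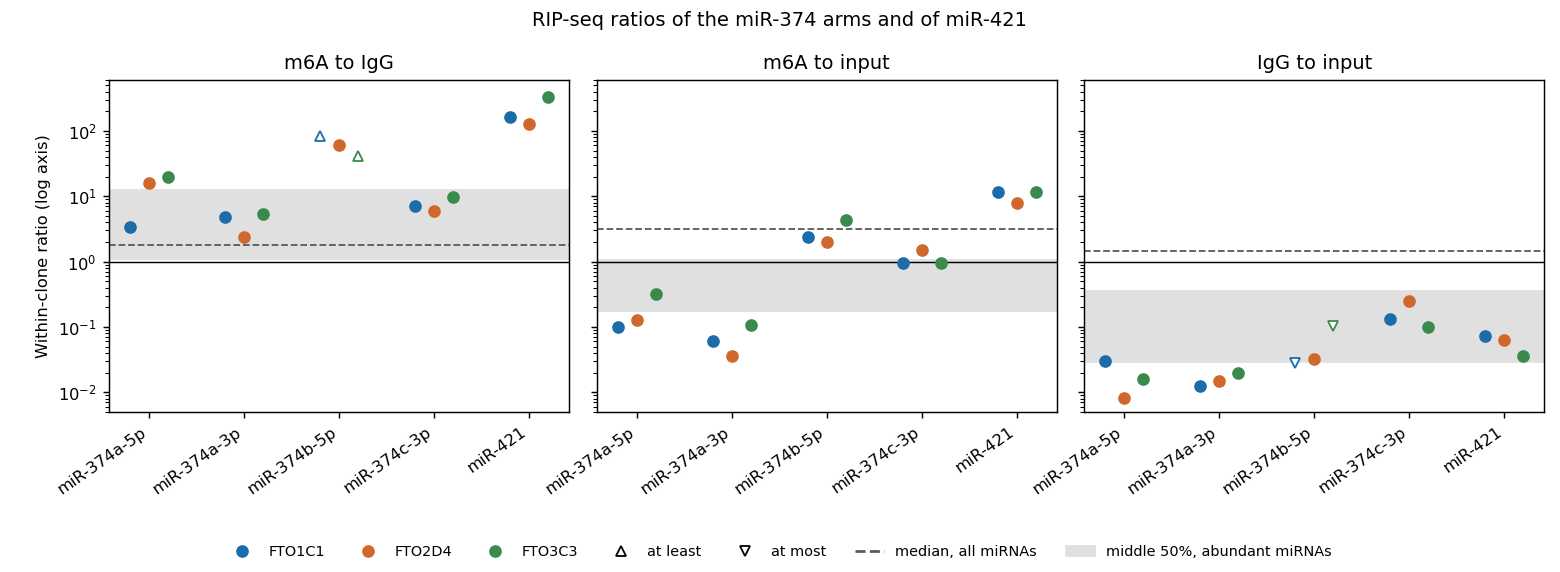
Within-clone ratios of m6A to IgG, m6A to input and IgG to input on a log axis for 4 miR-374 arms and miR-421. Upward and downward triangles mark values at the floor of 3 reads, where IgG had 0 reads. A dashed line marks the median of all miRNAs and a band the middle 50% of the 264 miRNAs abundant in inputs. miR-374b-5p and miR-421 lie above that band in m6A to IgG and m6A to input, and both miR-374a arms lie below 1 in m6A to input.

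The hairpins that share the FTX locus with the family give a further comparison. miR-421, the neighbour of miR-374b, was at 750 ± 75.8 RPM in inputs, 7712 ± 1154 RPM in m6A and 42.1 ± 13.3 RPM in IgG precipitates (SD, n = 3). Its ratio of m6A to input was 11.7, 7.92 and 11.6, higher than that of miR-374b-5p in each clone, and its ratio of m6A to IgG was 162, 128 and 328. miR-545-5p, from the neighbour of miR-374a, had 22.8 to 59.7 RPM in m6A and 39.1 to 69.7 RPM in IgG precipitates, with ratios of m6A to IgG of 0.584, 0.406 and 0.856. The RIP-seq values of miR-545-3p were not analysed here. After FTO knockdown 0 of these 3 neighbours were called by edgeR, with log2 fold changes of -0.23 (SE 0.14) for miR-421, -0.12 (SE 0.28) for miR-545-5p and 0.20 (SE 0.29) for miR-545-3p. Their adjusted p by edgeR were 0.317, 0.807 and 0.681. DESeq2 called miR-421 at an adjusted p of 0.0472, and miR-421 was lower after FTO siRNA in all 3 clones, at 0.918, 0.818 and 0.833 of the scrambled siRNA level.

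Finally, the miRNAs whose levels followed each arm most closely were sought by Pearson's r of log2(RPM + 1) over the 15 libraries, among 1778 miRNAs. The points share libraries, depth and the groups above, so r is a description. miR-374b-5p was most like miR-500a-3p (r = 0.986), miR-103a-3p (r = 0.975) and miR-378a-3p (r = 0.969). The first of these was at 295 ± 25.9 RPM in inputs, 1423 ± 90.8 RPM in m6A and 3.42 ± 4.80 RPM in IgG precipitates. miR-374a-5p was most like miR-3922-5p (r = 0.989), miR-15a-5p (r = 0.986) and miR-1277-5p (r = 0.984). miR-374a-3p was most like miR-301b (r = 0.993), miR-101-3p (r = 0.992) and miR-4267 (r = 0.991), and miR-374c-3p like miR-4432 (r = 0.904), miR-223-3p (r = 0.896) and miR-147b (r = 0.885). Between members, r was 0.960 for the 2 arms of miR-374a and 0.744 for their 5p arm with miR-374b-5p. For miR-374b-5p r was 0.943 with miR-421 and 0.752 with miR-374c-3p. The other FTX neighbour, miR-545-5p, had a negative r with each arm over the 15 libraries. It was -0.784 for miR-374a-5p, -0.748 for miR-374a-3p, -0.566 for miR-374b-5p and only -0.225 for miR-374c-3p. With a pseudocount of 10 RPM, 1 of these 3 nearest miRNAs recurred for miR-374b-5p, 1 for miR-374a-3p, 2 for miR-374a-5p and 3 for miR-374c-3p. Over the 6 knockdown libraries alone none of these nearest miRNAs recurred among the 3 closest to the same arm. There miR-545-5p was the miRNA closest to miR-374c-3p, at r = 0.951. Over the 9 RIP-seq libraries alone, 2 of the 3 recurred for each arm other than miR-374c-3p, for which 0 did.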

How the data were processed

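Small RNA was sequenced from 3 clones in 5 groups of 3 libraries. The authors deposited raw read counts per mature miRNA without normalization. Following their Methods, adapters were removed with cutadapt, short reads were matched to mature human miRNAs of miRBase by maximal exact matches, and a read meeting the criteria for several entries went to the one with most matching bases.

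From these counts RPM of total miRNA reads and within-clone ratios were computed. FTO siRNA was tested against scrambled siRNA with edgeR (version 4.0.16, R 4.3.3; quasi-likelihood test, filterByExpr with a minimum count of 10, total miRNA reads as library size, the clone as a block, Benjamini-Hochberg over 2374 miRNAs). The RIP-seq contrasts were fitted likewise and only described. Libraries of one name come from one clone. The deviations of the paired siRNA libraries from the mean of their group were weakly correlated, at 0.189, 0.121 and 0.160. Libraries of different clones were not compared in this way. Sequences and loci were taken from RefSeq (GRCh38.p14), where 2127 of 2424 counted miRNAs matched. Ratios used a floor of 3 reads for a count of 0, and correlations a pseudocount of 1 RPM. Other tools were Python 3.11.15 with scipy 1.17.1, pandas 2.3.3, numpy 2.4.6 and matplotlib 3.10.9, and DESeq2 1.42.0, and the edgeR script was tested on simulated data. Alternatives were TMM factors, DESeq2, other filters, no replicate block, each clone left out, totals without miR-6080 and other treatments of a count of 0. Named were the family arms, the neighbouring FTX miRNAs and the 3 miRNAs most like each arm. The members, lists and tests were chosen with earlier results of these data known. The set of 264 abundant miRNAs was added after seeing the data.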

Additional observations from a re-analysis of the deposited data

How the results depend on the processing

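Over 39 alternative values of the 5 log2 fold changes after FTO siRNA, 0 had an adjusted p under 0.05 by edgeR or DESeq2, and 3 changed sign. With each clone left out, the log2 fold change ranged from -0.16 to 0.072 for miR-374a-5p and from -0.20 to 0.10 for miR-374b-3p, both highest without FTO2D4, and from -0.56 to 0.64 for miR-374c-3p, highest without FTO3C3. DESeq2 gave miR-374c-3p no adjusted p, and the filter at 15 RPM removed it. The count of all miRNAs called, 130 (118 higher, 12 lower), was 55 with TMM factors (21 and 34) and 32 higher and 57 lower with DESeq2. With no replicate block, that is without the pairing by clone, it was 41 (37 and 4), and the block changed the call of none of the arms. With each clone left out it ranged from 0 to 201 (0 to 191 higher, 0 to 39 lower), being 0 by edgeR without FTO1C1, with 327 at an unadjusted p under 0.05. The filter at 15 RPM gave 21 lower. The mean ratio of m6A to IgG of miR-374b-5p, 62.7, was 37.1 with TMM factors, 39.4 without miR-6080 and 147 with a count of 0 set to 1, and its ratio of m6A to input, 2.90, was 1.08 with TMM factors. The causes were not tested. Fewer than 20 IgG reads stand behind most ratios to IgG, and no sign-flip permutation test with 3 clones could go below an exact p of 0.25.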
